A study of Mus musculus with 27 samples.

Results

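The 45945 positions described here are autosomal positions at which methylation was listed in every sample of 7 mouse strains and in no sample of CAST/EiJ or PWK/PhJ. They were selected on listing alone: a position had to be in all 21 files of the 7 strains and in none of the 6 files of the other two. They are called members below. They make up 2.35% of the 1952924 autosomal positions listed in all 21 files, and come from 5076653 autosomal positions listed in at least 1 file. The 1653370 autosomal positions listed in all 27 files, called shared positions, are the comparison.

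DNA methylation was measured by reduced representation bisulfite sequencing (RRBS) in liver cells labelled as hepatocytes, from female mice aged 12 weeks, with no treatment named in the labels. The 7 strains are the laboratory strains 129S1/SvImJ, A/J, C57BL/6J, DBA/2J, NOD/ShiLtJ and NZO/HlLtJ and the wild-derived WSB/EiJ. CAST/EiJ and PWK/PhJ are wild-derived too. Each strain has 3 samples, labelled as biological replicates, and each file lists single strand positions with a percent methylation and no read count. Between 2904787 and 3156965 positions were listed per sample, and the depth behind each percent is unknown.

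Methylation in mammals sits almost entirely at CpG, a cytosine followed by a guanine, and both strands of a CpG usually carry the same state. A methylated cytosine deaminates to thymine, and this change escapes repair more often than the deamination of an unmethylated cytosine. Over evolution CpGs were depleted from methylated DNA and kept in CpG islands, the CpG-dense and mostly unmethylated stretches at many gene starts. CAST/EiJ descends from Mus musculus castaneus and PWK/PhJ from Mus musculus musculus, whereas the other strains descend mostly from Mus musculus domesticus. An RRBS position is listed only where reads of a fragment cut by the enzyme MspI, at CCGG, align at a position called as a CpG. Whether that call came from the reference genome or from each strain's own sequence was not tested. In promoter windows, 98.5% of listed positions in CAST/EiJ and in PWK/PhJ lay on a reference CpG, against 99.95% in C57BL/6J. Where no strand of a CpG was listed in CAST/EiJ or PWK/PhJ, a CpG that is gone, a fragment that is gone and too few aligned reads cannot be told apart from these files. At part of the members the other strand was listed there, as described below.

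The sequences of 4 promoter windows show what members look like in the mouse reference genome (RefSeq, assembly GRCm38.p6), from 250 bases before to 30 bases after an annotated start, 5′ to 3′ on the gene's strand. They were chosen after their values were seen. Capitals mark each CpG with a member on at least 1 strand. Ctnna3, for a catenin of cell junctions, had the most members of the 4 windows (chr10:63429848-63430127, plus strand). Tet2, for an enzyme that oxidises methylated cytosine, had members at its start (chr3:133544361-133544640, minus strand). Ggt1, for gamma-glutamyltransferase (chr10:75573245-75573524, plus strand), and Prss23, for a serine protease (chr7:89527158-89527437, minus strand), show highly methylated members.
Ctnna3: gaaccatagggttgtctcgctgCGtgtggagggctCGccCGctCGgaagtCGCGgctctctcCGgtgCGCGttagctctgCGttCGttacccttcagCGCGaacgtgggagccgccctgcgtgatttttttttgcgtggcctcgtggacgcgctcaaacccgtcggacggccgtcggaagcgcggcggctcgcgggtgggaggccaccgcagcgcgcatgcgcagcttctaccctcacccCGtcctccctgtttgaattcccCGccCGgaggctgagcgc
Tet2: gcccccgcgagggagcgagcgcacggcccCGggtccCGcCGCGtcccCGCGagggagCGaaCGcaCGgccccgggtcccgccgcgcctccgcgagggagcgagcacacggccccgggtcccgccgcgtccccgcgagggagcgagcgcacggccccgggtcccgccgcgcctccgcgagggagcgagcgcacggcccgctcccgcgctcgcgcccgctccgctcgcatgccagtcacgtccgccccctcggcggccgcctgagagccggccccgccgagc
Ggt1: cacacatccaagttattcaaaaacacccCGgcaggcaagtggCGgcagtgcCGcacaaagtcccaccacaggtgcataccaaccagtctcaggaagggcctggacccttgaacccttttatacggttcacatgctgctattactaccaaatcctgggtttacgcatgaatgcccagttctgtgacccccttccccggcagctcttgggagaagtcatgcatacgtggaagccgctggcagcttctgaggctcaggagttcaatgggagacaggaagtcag
Prss23: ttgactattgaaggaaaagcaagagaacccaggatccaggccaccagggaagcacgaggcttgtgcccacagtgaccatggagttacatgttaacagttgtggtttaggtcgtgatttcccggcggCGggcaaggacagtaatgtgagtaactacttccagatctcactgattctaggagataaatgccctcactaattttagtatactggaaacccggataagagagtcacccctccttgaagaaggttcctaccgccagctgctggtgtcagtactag

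In the Ctnna3 window 23 of 33 positions listed in all 21 files were members, at 16 of the 39 CpGs. Their mean was 0.353% in the 7 strains, with samples from 0 to 1.21% and strain means from 0.181% in WSB/EiJ to 0.506% in NOD/ShiLtJ. All 7 strains were thus near 0 there, and the 4 shared positions of the window were also low, at 1.42% in CAST/EiJ and 1.67% in PWK/PhJ. The Tet2 window held 9 members among 71 positions and 53 shared positions. Its members lay at 0.549%, with samples from 0 to 2.22%, and its shared positions at 0.465% in the 7 strains, 0.420% in CAST/EiJ and 0.665% in PWK/PhJ. The 9 members sit in a single stretch of 38 bases, and 3 further stretches of the window differ from it by 1, 3 and 4 bases. Whether the authors' alignment kept reads of such copies apart was not tested.

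At Ggt1, 4 of 8 positions were members, at 3 CpGs from base -222 to base -199 relative to the start. Their mean was 94.5%, with strain means from 89.3% in C57BL/6J to 98.1% in NOD/ShiLtJ. At Prss23 both strands of a single CpG, 124 bases before the start, were members. This CpG was at 95.2% in the 7 strains, with samples from 83.9 to 100%. The shared CpG 3 bases before it, at 88.4% in the 7 strains, was at 97.8% in CAST/EiJ and 85.0% in PWK/PhJ. The 7 shared positions of the window averaged 88.3% in the 7 strains, 90.03% in CAST/EiJ and 86.1% in PWK/PhJ. Here a lone CpG was missing from the lists of both strains while its neighbours stayed listed and methylated.

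Members were mostly methylated CpGs. Per sample their mean methylation ran from 71.5 to 72.9%, with a mean of 72.1% ± 0.459 (SD, n = 21). Shared positions ran from 26.8 to 27.9%, with a mean of 27.3% ± 0.319 (SD, n = 21). The groups of values did not overlap, and members were 44.8 points higher (± 0.330, SD, n = 21), from 44.3 to 45.5 points, in 21 of 21 samples. This gave p = 1e-05 in a two-sided sign-flip permutation test over samples, the smallest p these permutations can give. Taking the 7 strain means as the units gave an exact p of 0.0156. Both tests cover the spread between samples or strains, not between positions, which are linked along the genome. The median position differed more, by 89.6 points, and 57.6% of shared positions had a mean under 2.5%.

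**Figure D1:**
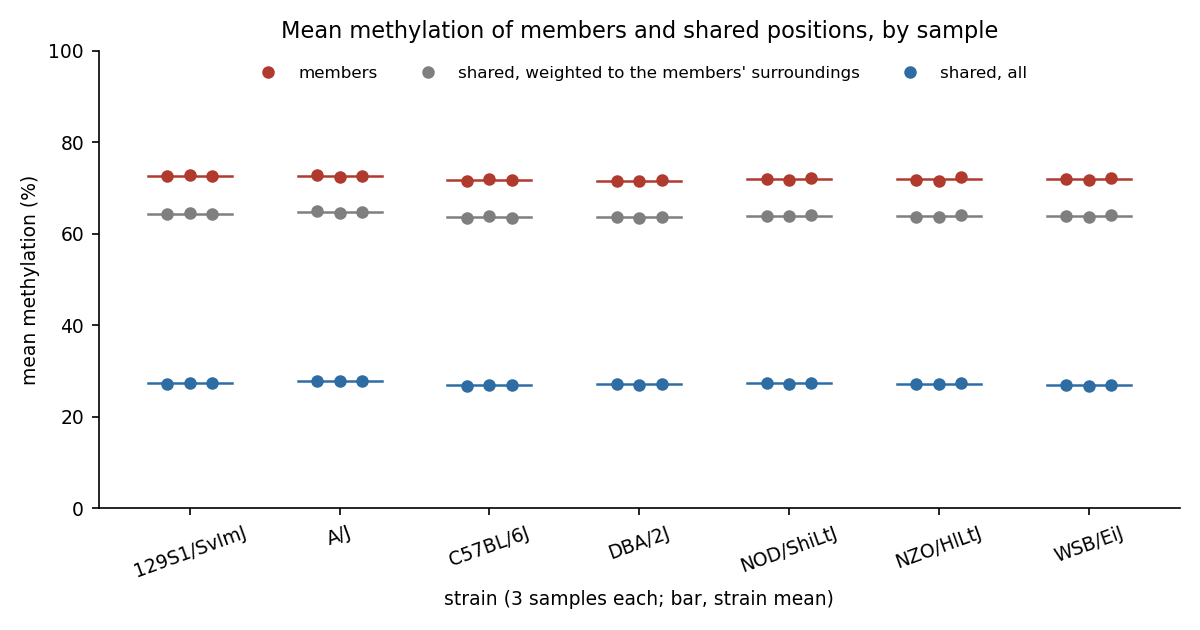
Mean methylation in percent (y axis) of members, of all shared positions and of shared positions weighted to the members' surroundings, for each of the 21 samples (points) of 7 strains (x axis), with strain means as bars. Members lie between 71.5 and 72.9% in every sample, shared positions between 26.8 and 27.9%, and weighted shared positions between 63.4 and 64.9%.

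Of the members, 66.3% had a mean of 80% or more over the 21 samples, against 23.2% of shared positions. Another 17.0% of members were under 20%, against 68.4% of shared positions. Read the other way, 0.647% of all positions under 20% were members, 4.14% of those at 20 to 80% and 5.43% of those at 80% or more. The share rose with methylation from 0.524% at 0 to 2.5% to 5.42% at 80 to 90% and then stayed level, with 5.55% in the most methylated class of positions. Positions at 80% or more were members 8.40 times as often as those under 20%. This ratio was above 1 on each of the 19 autosomes, where it ran from 6.58 on chromosome 7 to 11.4. On the X chromosome, left out of the rule, 1833 positions met the same listing rule, and they exceeded shared X positions by 36.3 points.

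**Figure D2:**
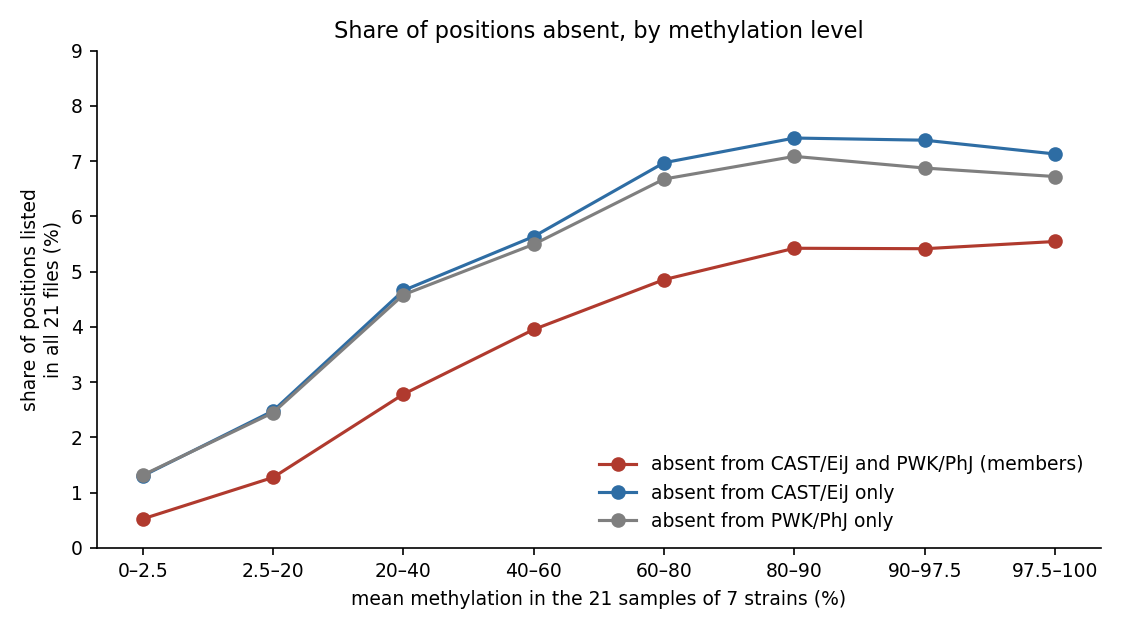
Share of positions listed in all 21 files (y axis, percent) that were absent from all CAST/EiJ and PWK/PhJ files, from CAST/EiJ files only or from PWK/PhJ files only, by mean methylation in the 7 strains (x axis, percent). All 3 lines rise steeply up to 60 to 80% and change little above 80%.

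Absence from both CAST/EiJ and PWK/PhJ went with higher methylation than absence from either alone. Positions absent from all CAST/EiJ files and listed in the other 24 numbered 70596 and averaged 64.3% ± 0.426 (SD, n = 21) in the same 21 samples. The 67789 positions absent only from PWK/PhJ averaged 63.2% ± 0.445 (SD, n = 21). Members lay 7.76 points ± 0.160 (SD, n = 21) above the first set and 8.93 points ± 0.110 above the second, in 21 of 21 samples each (sign-flip permutation test, p = 1e-05 for both). In the other direction, 46970 autosomal positions were listed in all 6 CAST/EiJ and PWK/PhJ files and in none of the 21.

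Among the 36 pairs of strains, CAST/EiJ with PWK/PhJ had the most positions absent from that pair alone, which are the members. The next pair was CAST/EiJ with WSB/EiJ, with 5424 positions, then DBA/2J with PWK/PhJ, with 3204. The median of the other 35 pairs was 626 and the lowest 374. Some of these far smaller sets were as highly methylated in the strains that listed them, with 74.96% for CAST/EiJ with A/J (493 positions), 72.9% for PWK/PhJ with WSB/EiJ (2818) and 72.7% for CAST/EiJ with WSB/EiJ. Of single strains, WSB/EiJ lacked 12106 positions that all other strains listed, and the 6 laboratory strains lacked 2397 to 4013. Positions listed in 1 of the 6 CAST/EiJ and PWK/PhJ files, just outside the rule, numbered 15743 and averaged 74.4%. Those listed in 3 files numbered 144521, at 63.9%, and those in 5 files 37990, at 53.5%.

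The level of members differed little but measurably among the 7 strains. 129S1/SvImJ was at 72.7% ± 0.118 and A/J at 72.7% ± 0.234 (SD, n = 3 each). The other 5 strains lay between 71.6% ± 0.135 in DBA/2J and 72.0% ± 0.228 in NOD/ShiLtJ (SD, n = 3 each). Every sample of 129S1/SvImJ and A/J, from 72.5% upward, lay above every sample of the other 5 strains, which reached 72.4%. Among those 5, DBA/2J, from 71.5 to 71.7%, lay below NOD/ShiLtJ, from 71.8 to 72.3%, without overlap. Relative to shared positions, the members' excess ran from 44.5 points ± 0.159 in DBA/2J to 45.4 points ± 0.0883 in 129S1/SvImJ (SD, n = 3 each). This excess differed among strains in a permutation test (F = 6.81, p = 0.00228, 100000 resamples). F was 10.9 without NZO/HlLtJ replicate 3. The strain means thus spanned less than 1 point of a 44.8-point difference.

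Members lay in CpG-poorer surroundings than shared positions and farther from gene ends. The median distance to the nearest end of a protein-coding gene was 21506 bp for members and 990 bp for shared positions, and 11.8% of members against 50.2% of shared positions lay within 1000 bp. Within 100 bp, the median member had 3 other positions listed in all 21 files and the median shared position 18. By distance, members made up 0.576% of positions up to 250 bp from a gene end, 1.73% at 1000 to 5000 bp and 6.23% beyond 50000 bp. By density, they made up 6.05% of positions with 0 to 1 neighbours and 0.377% of those with 20 or more. Protein-coding genes with 1 kb on each side held 52.2% of members and 85.0% of shared positions.

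Methylation and surroundings go together, so both were set against membership at once. Among positions with 0 to 1 neighbours, 3.12% of those under 20% methylation and 6.53% of those at 80% or more were members. With 10 to 19 neighbours the shares were 0.750 and 3.24%, and with 20 or more 0.368 and 1.37%. Positions at 20 to 80% lay between these classes in every density class but the densest, where their share was 0.357%. Up to 250 bp from a gene end, 0.526% of positions under 20% and 2.45% of those at 80% or more were members. Beyond 50000 bp these shares were 1.502 and 7.45%.

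**Figure D3:**
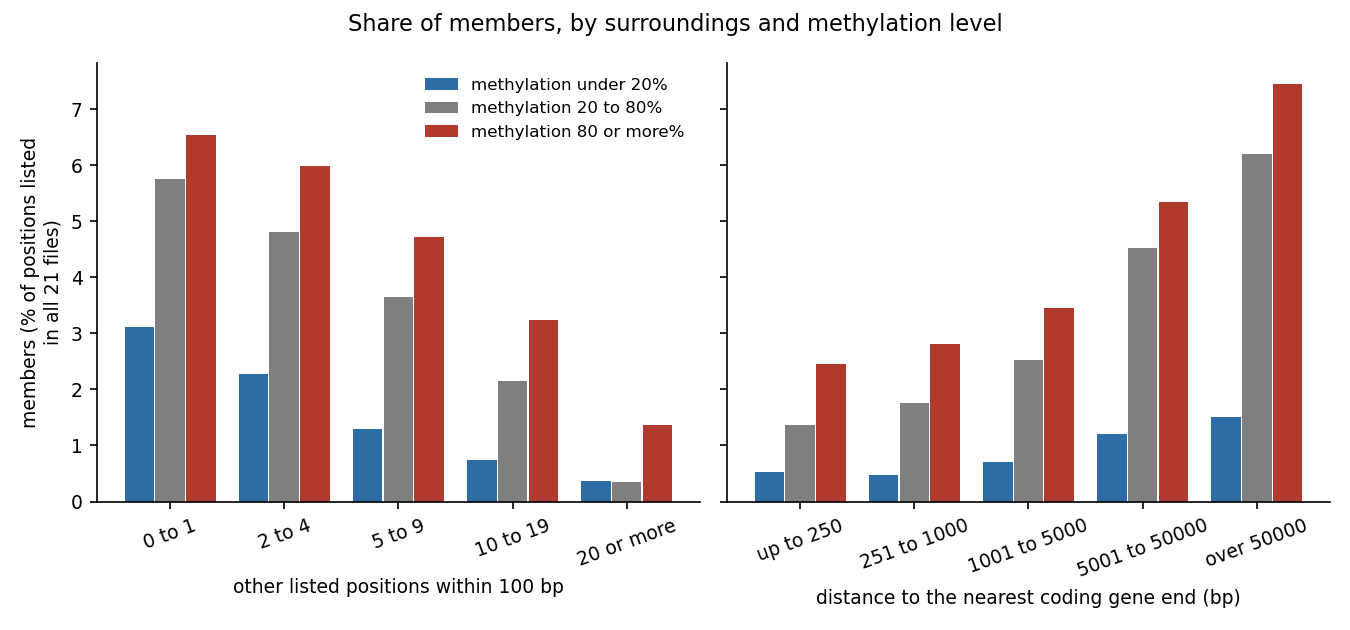
Share of positions listed in all 21 files that are members (y axis, percent), by number of other listed positions within 100 bp (left) and by distance to the nearest protein-coding gene end in bp (right), for 3 classes of mean methylation (bars). In every class of density and distance the bar for methylation of 80% or more is the tallest.

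Within each of 5 classes of density and 5 of distance, the members' mean was above that of the shared positions in 21 of 21 samples. The difference ran from 2.34 points ± 0.0678 (SD, n = 21) with 20 or more neighbours to 34.0 points ± 0.368 (SD, n = 21) at 1000 to 5000 bp. Each of the 10 gave an adjusted p of 1e-05 in the sign-flip permutation test, with Benjamini-Hochberg adjustment over the 10. With shared positions weighted to the members' mix of 25 density and distance classes, their mean was 64.0% ± 0.445 (SD, n = 21). The difference was then 8.09 points ± 0.148 (SD, n = 21; sign-flip permutation test, p = 1e-05), from 7.84 to 8.41 points over samples. Most of the 44.8 points thus moved with density and distance. Beyond 1 kb of an end of any gene, the unweighted difference was 27.7 points.

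Members lay at lone CpGs and in short runs. They fall on 37115 CpGs. At 29892 of these every strand listed in all 21 files was a member, and only these are called member CpGs here. The other 7223 CpGs each had a member on 1 strand and a listed position that was no member on the other. Their 7223 members, at 66.7% ± 0.427 (SD, n = 21), are in neither the lone nor the run class, and such CpGs end a run. A run is a series of member CpGs that follow each other among the CpGs listed in all 21 files, with gaps of at most 300 bp. There were 21647 runs, and 16878 of them held a single CpG, so 56.5% of the 29892 member CpGs were lone. When a member on either strand made a CpG a member, 42.0% of the 37115 were lone. Runs of 2 held 19.2% of member CpGs, runs of 3 to 4 held 16.8% and runs of 5 to 9 held 6.90%. Of all runs, 18 held 10 or more CpGs, and the longest held 14. With a gap limit of 100 bp, 66.0% of member CpGs were lone.

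Methylation was highest in short runs and lower in lone CpGs and long runs. Lone members averaged 69.9% ± 0.514, runs of 2 CpGs 79.6% ± 0.508, runs of 3 to 4 78.1% ± 0.457 and runs of 5 to 9 71.5% ± 0.539 (SD, n = 21 each). The 18 longest runs averaged 52.8% ± 1.81 (SD, n = 21). Members in runs exceeded lone members by 7.27 points ± 0.205 (SD, n = 21; sign-flip permutation test, p = 1e-05), in 21 of 21 samples. The difference was 4.09 points for the median position and 4.39 points with a gap limit of 100 bp.

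Lone members differed in level by what lay around them. Here means were taken over CpGs with listed strands averaged, not over strand positions as for the runs. A CpG listed in all 27 files lay within 100 bp of 5404 lone members (32.0%), and these averaged 54.1% ± 0.575 (SD, n = 21). A further 6191 (36.7%) had other CpGs of the 21 files within 100 bp, but none with every such strand listed in all 27 files. These averaged 79.4% ± 0.536. The remaining 5283 (31.3%) had no other CpG of the 21 files within 100 bp and averaged 82.4% ± 0.644. Shared CpGs that stood equally alone, 86581 in number, averaged 76.4% ± 0.604. Isolated members thus exceeded isolated shared CpGs by 5.92 points ± 0.270 (SD, n = 21; sign-flip permutation test, p = 1e-05), in 21 of 21 samples.

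**Figure D4:**
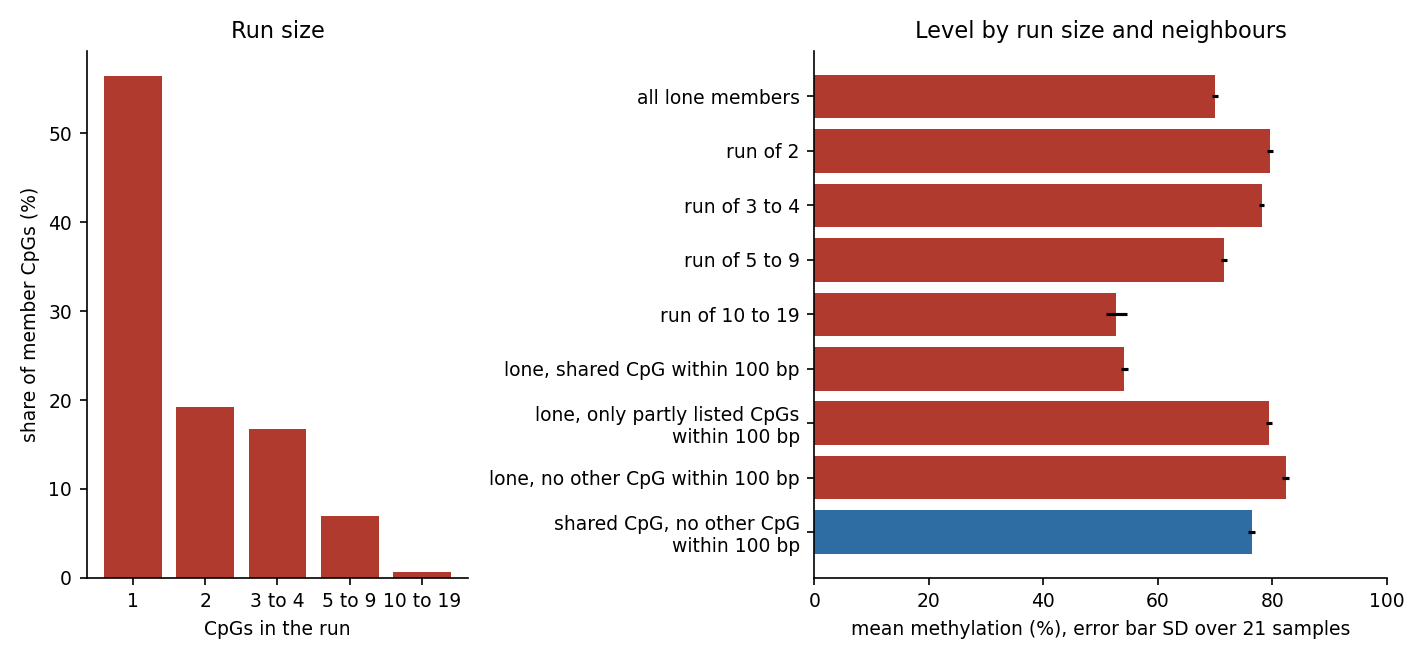
Left, share of member CpGs (y axis, percent) by the number of CpGs in their run (x axis). Right, mean methylation (x axis, percent; error bars, SD over 21 samples) of members by run size, of lone members by their neighbours, and of isolated shared CpGs (blue). Only CpGs whose listed strands were all members are counted, among which lone CpGs are the largest group. Lone members with a shared CpG nearby lie below the other lone members. The class of only partly listed CpGs holds lone members with other CpGs but no shared CpG within 100 bp. Means by run size are over strand positions, and the other means are over CpGs.

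Next to a shared CpG the excess was gone. The 5404 lone members with a shared CpG within 100 bp averaged 54.1%, and their nearest shared CpGs 54.8% ± 0.445 (SD, n = 21). The lone members were lower by 0.688 points ± 0.274 (SD, n = 21), in 21 of 21 samples (sign-flip permutation test, p = 1e-05). The median of the lone members minus the median of their nearest shared CpGs was -2.25 points, which is not a difference within pairs. In 2.39% of the pairs the lone member lay more than 25 points above its neighbour, and in 2.87% more than 25 points below. For shared CpGs against their own nearest shared CpG these shares were lower, 1.25 and 1.33%. The pairs were not matched on methylation level, and 68.4% of all shared positions were under 20%. The difference in shares was not tested and is not read as a trait of members. Where the neighbour was under 20%, 96.8% of 1982 lone members were under 20% too, with means of 3.30% for the lone members and 2.37% for their neighbours. Where it was at 20 to 80%, 736 lone members averaged 61.2% and their neighbours 57.2%. In both classes the lone members' mean was the higher one. Where it was at 80% or more, 87.6% of 2686 lone members were as well. There the lone members' mean, 89.7%, was below that of their neighbours, 92.9%. The classes were cut on the neighbour's own level, which alone can make neighbours read lower in low classes and higher in high ones. These directions are therefore not read as a trait of members, and no such split is given for shared CpGs.

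Both strands of a CpG count as separate positions. At 8830 member CpGs both strands were members, and at 7223 both strands were listed in all 21 files but only 1 was a member. The other strand of those 7223 CpGs was listed in 1 of the 6 CAST/EiJ and PWK/PhJ files at 2636 CpGs and in all 6 at 1198. At these 1198 the other strand read 48.0% ± 0.455 (SD, n = 21) in the 7 strains and 48.1% ± 0.311 (SD, n = 6) in CAST/EiJ and PWK/PhJ. At 558 CpGs the other strand was listed in all CAST/EiJ files and no PWK/PhJ file, with 71.0% ± 0.665 (SD, n = 21) in the 7 strains and 69.4% ± 0.578 (SD, n = 3) in CAST/EiJ. At 433 CpGs with the reverse pattern, the levels were 71.6% ± 0.747 (SD, n = 21) and 70.8% ± 0.609 (SD, n = 3) in PWK/PhJ. For part of the members, then, a CpG absent by the rule was still read on its other strand, with class means within 2 points of the 7 strains.

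In RefSeq promoter windows, 1490 members could be set against reference bases, leaving out the outermost bases at both ends of each window. All 1490 lay on a CpG of the reference, 760 on its C and 730 on its G, as did 99.998% of shared positions. Both sets are listed in all C57BL/6J files, the strain of the reference, so this follows largely from the listing rule. The motif CCGG, which reads the same on both strands and is the MspI site, covered the CpG at 23.2% of these members and at 15.3% of 235641 shared positions. CCGG is present in 61.4% of the 20084 coding promoter windows of 280 bases. The windows used for the 1490 members reach further past the start and are not limited to coding genes. Under 20% methylation the shares were 20.9% of 1343 members and 14.9% of shared positions, and at 80% or more 41.2% of only 102 members and 35.6%. Of all listed positions in promoter windows, 98.5% in CAST/EiJ and 98.5% in PWK/PhJ lay on a reference CpG, against 99.4 to 99.5% in the other 6 strains besides C57BL/6J and 99.95% in C57BL/6J, the strain of the reference.

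Genes near members were named by count. Of 11652 protein-coding genes with listed positions within 1 kb of a start, 1716 (14.7%) had a member there. In 1156 of these there were 1 or 2 members, and in 60 there were 10 or more. Ctnna3 led with 29 members of 62 positions around its starts, at 3.01% over the 21 samples, with 24 shared positions there at 0.578%. Trp53rkb and Trp53rka, both named as regulating kinases of p53, followed with 28 and 26 members, at 12.0 and 0.668%. The shared positions near their starts were higher, with 13 at 84.0% and 27 at 16.6%. Oxct2a and Oxct2b, genes of ketone body use in the testis, had 20 and 16, at 4.50 and 19.8%, and their 10 and 2 shared positions read 29.9 and 27.1%. By their names each pair may be copies of 1 gene, and whether the authors' alignment kept their reads apart was not tested.

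The rest of the 10 genes with the most members were Rmi1 with 19, Zfp959 with 18, Spice1 with 18, Dmac2l with 17 and Il20ra with 16. Rmi1 codes for a part of a complex that dissolves crossed DNA strands in recombination, Spice1 for a centriole protein and Il20ra for a cytokine receptor subunit. At Zfp959, a zinc finger gene, all 18 positions near the start were members, at 0.402% with samples from 0 to 1.45%. At Rmi1 the 19 members stood among 266 shared positions and read 2.06%, against 0.467% at the shared ones. At Il20ra members made up 16 of 30 positions and read 1.81%, and its 13 shared positions 7.14%. In 9 of these 10 genes the members' mean was under 15%. Members within 250 bp of a gene end averaged 10.5% in all.

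The 10 longest runs were of both kinds. The longest, 14 CpGs over 649 bp on chromosome 6 from 85843578 to 85844226, overlapped the pseudogene Ptges3-ps. Its strain means ran from 27.9% ± 18.5 in 129S1/SvImJ and 28.2% ± 7.19 in NZO/HlLtJ to 65.9% ± 5.63 in A/J (SD, n = 3 each), and single samples from 14.1 to 73.8%. Samples within a strain also differed widely there, and the strains were not tested against each other for this run. The second, 13 CpGs on chromosome 3 from 3426089 to 3426367, lay 81663 bp from the nearest gene, Hnf4g, and read 95.1% with strain means from 94.3 to 96.2%. A run of 12 CpGs in 9830107B12Rik on chromosome 17 read 93.0%, and a run of 11 in the pseudogene Gm5522 on chromosome 1 read 95.2%.

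Of the other 6 long runs 4 were unmethylated and 2 highly methylated. The run of 12 CpGs at Trp53rka on chromosome 2 read 0.550%, the run of 11 at Reep1 on chromosome 6 read 0.412% and the run of 11 at Gm38431 and Raver1 on chromosome 9 read 0.382%. Reep1 shapes the endoplasmic reticulum. Its run, from 71707949 to 71708094, began 5 bp after a shared position and ended 21 bp before the next. A run of 11 CpGs at H2-Q7, an MHC class I gene with near copies, read 1.12% and lay 14218 bp from the nearest shared position. The run near Gm32892 on chromosome 17 read 91.0%, with 82.9% ± 2.56 in 129S1/SvImJ and 90.9 to 94.0% in the other strains, and the run near Fbxo30 on chromosome 10 read 93.8%.

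Gene lists were counted over gene spans with 1 kb on each side. Members were 1.52% of positions in all autosomal protein-coding genes and 5.89% outside them, with mean levels over all listed positions of 25.3 and 65.5%. Among positions at 80% or more the shares were 4.11 and 7.56%. Among the 2979 positions of 16 hepatocyte transcription factors, 19 were members (0.638%), 10 of them in the nuclear receptor gene Rxra and 6 in Nr5a2. Among positions of these factors at 80% or more, 3.46% were members. In Nr5a2, which regulates bile acid genes, the members read 90.6%. Of 282 positions in genes for proteins secreted by the liver, 8 were members (2.84%), 7 of them in Trf, for transferrin, and none of the 19 positions at 80% or more. The 39 Hox genes had 29 members of 5631 positions (0.515%), at 4.44%. The 15 imprinted genes found had 1 member of 2065 positions (0.0484%), in Igf2r, at 87.5%. It is also the single member among their 179 positions at 80% or more.

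Genes that set and read methylation held 50 members of 2150 positions (2.33%), and 4.08% of their positions at 80% or more were members. Dnmt1, which copies methylation to new DNA strands, had 14 at 95.1%, and Dnmt3a, which sets it on unmethylated DNA, had 13 at 40.1%. Mbd1 had 10 of 91 positions, at 0.419%. Tet2 had 9, those of the promoter sequence above. Genes that repair deaminated CpGs or other mismatches held 24 of 1128 (2.13%) and 7.14% of those at 80% or more, with 6 at 96.3% in Ung, which removes uracil from DNA. Cytochrome P450 genes (Cyp) held 62 of 2214 (2.80%), led by Cyp2c66 and Cyp7b1 with 9 each, at 92.8 and 92.0%. Among Cyp positions at 80% or more, 7.35% were members. Cyp2c69 had 6 of its 7 positions as members, in a cluster of close copies. Vomeronasal receptor genes (Vmn) reached 5.32% (21 of 395) and olfactory receptor genes (Olfr) 2.71% (12 of 443). The Olfr genes with the most members, 2 each, were Olfr1358, Olfr1373 and Olfr368, with 15, 2 and 7 listed positions. Set beside the 1.52% of all coding genes, 1.72% of positions were members in Abc transporters, 1.74% in Slc transporters, 1.98% in MHC genes (H2-) and 2.20% in Ugt genes. Of the 18 H2- members, 15 lay in H2-Q7 alone, which had 21 listed positions. Shares were 1.15% in Zfp genes, 0.831% in Serpin genes and 0.767% in protocadherins (Pcdh). Among their positions at 80% or more the shares were 3.37% in Abc, 4.69% in Slc, 3.85% in H2-, 2.56% in Zfp, 1.75% in Serpin and 2.14% in Pcdh genes. In single genes, members were 11 of 171 positions in Abcc8, 25 of 162 in Slc14a2, 9 of 240 in Pcdh15, 6 of 418 in Hoxd3, 2 of 3 in Serpinb6c and 2 of 54 in Serpini1. Several overlapping Ugt1a genes, Ugt1a10 among them, share the same 5 members, and 14.7% of the 34 Ugt positions at 80% or more were members. The 9 positions of major urinary protein genes (Mup) held none. Vmn2r78 led the vomeronasal genes with 6 members, at 90.6%. Among positions at 80% methylation or more, 7.83% were members in Vmn genes and 2.63% in Olfr genes, against 4.11% in all coding genes, and these differences were not tested. The vomeronasal and olfactory genes had high levels over all their listed positions, 70.0 and 75.6%, and both families share sequence among copies.

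Members were also tested for differences among the 7 strains, a contrast that the listing rule did not use. Of 874158 positions listed in all 21 files whose mean was not close to 0 or 100%, limma's moderated F test called 1.70% (adjusted p under 0.05 with Benjamini-Hochberg adjustment, strain means at least 25 points apart). Of the 45945 members 36785 passed the filter on the mean and 465 were called, or 1.26%. An unadjusted p under 0.05 was reached at 3808 of the 36785 members and 99075 of the 874158 positions. Between 20 and 80% methylation, 3.73% of tested members and 5.20% of all tested positions were called, above 80% methylation 0.5004 and 0.430%, and under 20% methylation 1.82 and 1.58%. Without the filter on the mean, 411 of the 44280 members that varied at all were called (0.928%), and 0.835% of the 1692312 positions that varied. The members' share was thus below that of all positions at intermediate levels. At low and high levels the shares were close, with 46 of 2527 and 133 of 26579 tested members called. No difference between these shares was tested. At 15.7% of the 465 called members WSB/EiJ stood alone on its side of the midpoint of strain means, against 8.18% of called shared positions. The shares were 7.10 and 3.70% for C57BL/6J and 3.01 and 8.77% for A/J, and these differences were not tested.

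Shared positions close to members were called more often between the absent strains and the 7. Over 666641 shared positions under the same filter on the mean, limma's moderated t statistic of CAST/EiJ with PWK/PhJ against the 7 strains called 2.00% (adjusted p under 0.05, difference of at least 25 points). Within 100 bp of a member 700 of 20197 were called, or 3.47%, with 431 higher in CAST/EiJ and PWK/PhJ and 269 lower. Over all shared positions tested 8887 were higher and 4446 lower, and within 10 bp of a member 71 were higher and 76 lower. The share was 4.14% at 1 to 10 bp, 3.43% at 26 to 50 bp, 2.65% at 250 to 1000 bp and 1.78% beyond 10000 bp. Methylation level and CpG density also change with distance from a member, and their part in these shares was not tested.

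**Figure D5:**
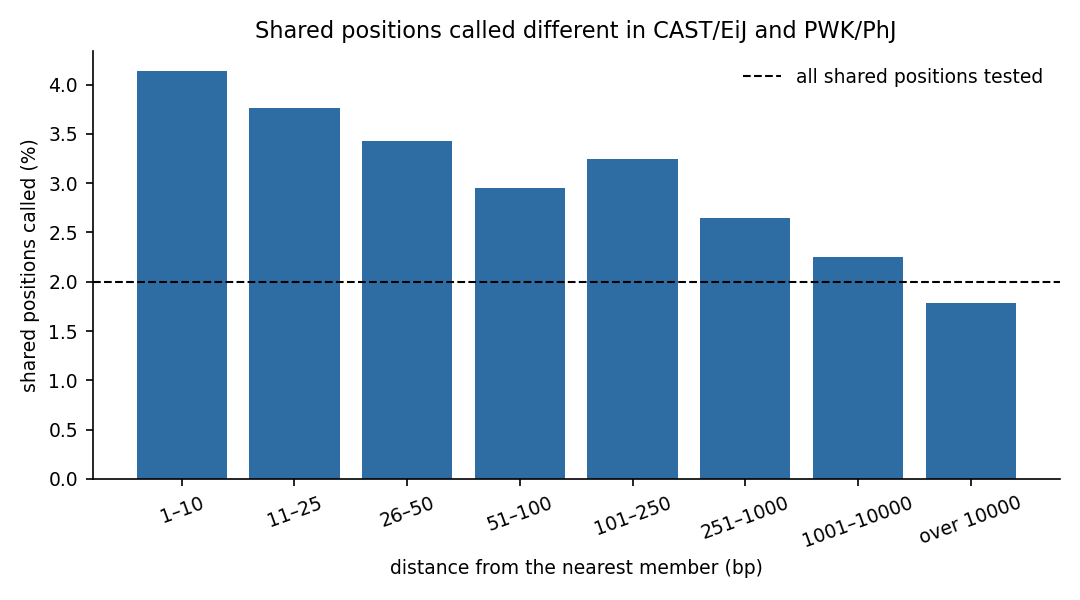
Share of shared positions called different between CAST/EiJ with PWK/PhJ and the 7 strains (y axis, percent) by distance from the nearest member in bp (x axis); the dashed line is the share of all shared positions tested, 2.00%. The share falls from 4.14% at 1 to 10 bp to 1.78% beyond 10000 bp, with 3.24% at 100 to 250 bp standing above 2.95% at 51 to 100 bp.

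Shared positions next to members were less methylated than shared positions at large, in all 9 strains. At the 61593 shared positions within 100 bp of a member, the level was 22.2% in CAST/EiJ and 22.4% in PWK/PhJ, and from 21.6% in C57BL/6J to 22.3% in A/J in the 7 strains. Set against each strain's own level at all shared positions, this was lower by 5.40 points in WSB/EiJ and C57BL/6J to 5.71 points in PWK/PhJ. The gap to all shared positions, not the level itself, was 0.204 points wider in the mean over CAST/EiJ and PWK/PhJ than in the mean over the 7 strains. The exact permutation p over strain means was 0.0278, two-sided, the smallest that the 36 splits allow, and within 250 bp p was 0.0556. Within 25 bp the gaps differed by -0.422 points, with p = 0.0278 in the same exact test. CAST/EiJ, at -5.64 points, and A/J, at -5.59 points, were nearly equal.

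Members were unevenly spread along the genome. Their share of the positions listed in all 21 files ran from 1.41% on chromosome 14 to 3.50% on chromosome 18. Among 1263 windows of 1 Mb with at least 500 such positions, the median share was 2.07%, with quartiles of 0.682 and 3.32%. The highest was 10.6%, on chromosome 8 from 10000001 to 11000000, and 133 windows held no member. In those 133 windows, which were selected for holding no member, 4.30% of positions were absent from all CAST/EiJ files and 0.903% from all PWK/PhJ files. Over all 1263 windows, in which members are 2.02% of positions, these shares were 5.82 and 5.74%. The longest stretch without members was 9 windows on chromosome 4, from 134000001 to 143000000, with 22105 positions. Of these 4.52% were absent from CAST/EiJ and 0.0995% from PWK/PhJ.

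The label of hepatocytes was checked at gene starts with shared positions. The starts of the hepatocyte genes Hnf4a, Foxa3 and Cebpa read 6.18, 0.790 and 0.439%. Kdr and Lrat, markers of endothelial and stellate cells, were also low, at 1.56 and 1.44%, whereas Tie1 read 92.2%. Des, of stellate cells, read 14.2% and Epcam, of bile duct cells, 52.1%. The other 14 markers had no shared position at their starts, so the starts that were read do not separate the cell types.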

How the data were processed

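For each of 27 samples the authors deposited a list of strand positions with a percent methylation, per the file headers. Trim Galore 0.6.3, Bowtie2 and Bismark 0.22 and the build GRCm38 (mm10) are named in the submitters' processing notes. Any coverage filter is not given in the sources used here, and the files hold no depth. Each sample's strain was taken from its labels.

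Members, tests and gene lists were chosen with earlier results of these data known. Means over positions were taken per sample and compared by sign-flip or F permutation tests with 100000 resamples, or by exact permutation over strain means. Positions were tested with limma's moderated statistics on log2((percent + 5)/(100 - percent + 5)) for means of 2.5 to 97.5%. All statistics ran in numpy 2.4.6 and scipy 1.17.1 (Python 3.11.15, pandas 2.3.3) and were checked against limma 3.58.1 in R 4.3.3 and tested on simulated data. The offset of 5 is in percentage points. Positions 1 bp apart were joined as strands of a CpG along chains of positions listed in any C57BL/6J file, which matched the reference at 99.8% of members in promoter windows. Genes, starts and promoter sequences come from RefSeq GRCm38.p6, and 32618 of its genes with a promoter window were matched to the gene table.

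Named by rule were the 10 longest runs by CpGs, the 10 coding genes with the most members within 1 kb of a start, and the gene with the most members in each list. Runs with equal numbers of CpGs were ranked by larger span, then by chromosome and start, so other runs of 10 CpGs are not shown. Other genes named were chosen after their values were seen. Alternatives covered the listing rule, gap and distance limits, offset, filter, scale, a replicate block, strain means and each sample left out. p-values measure the spread between these samples. Figures were drawn with matplotlib 3.10.9.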

Additional observations from a re-analysis of the deposited data

Results flagged for a closer look

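The excess of members over shared positions was not the same in the 7 strains. It ran from 44.5 points ± 0.159 (SD, n = 3) in DBA/2J to 45.4 points ± 0.0883 (SD, n = 3) in 129S1/SvImJ, and a permutation test of the difference among strains gave F = 6.81 and p = 0.00228. Of its 2 parts, the level of members varied from 71.6% in DBA/2J to 72.7% in 129S1/SvImJ, and the level of shared positions from 26.95% in C57BL/6J to 27.9% in A/J.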

How the results depend on the processing

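Of 390 alternative values, 385 kept both direction and call or, for counts, stayed within 1.5 times, and 0 were reversed. For counts this compares the numbers alone, not a share beside that of all positions. Without the filter on the mean, the members' share called among the 7 strains, 0.928%, lay above that of all positions, 0.835%. In the main setting it lay below, at 1.26 against 1.70%. Calls of members among the 7 strains fell from 465 to 276 with an offset of 1 point, 0.750% of those tested, when 0.887% of all tested positions were called. Calls near members rose from 700 to 1509 with a minimum of 10 points (7.47% of those tested, against 4.24% of all shared positions), and were 312 within 25 bp and 1205 within 250 bp, where the number tested changes with the distance. The gap between positions next to members and all shared positions differed by -0.175 points between CAST/EiJ with PWK/PhJ and the 7 strains within 250 bp, with an exact p of 0.0556, and the cause was not tested.

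Leaving out single samples, the members' excess stayed at 44.8 to 44.9 points, the strain F at 4.90 to 10.9 (p from 0.00032 to 0.00922), calls among members at 381 to 511 (1.03 to 1.32% of those tested, against 1.42 to 1.73% of all positions) and calls near members at 695 to 742 (3.41 to 3.54%, against 1.90 to 2.03% of all shared positions). Deviations of same-numbered samples of different strains correlated at 0.000443 on average over 76 pairs, and those of differently numbered samples at -0.000135 over 248 pairs. Replicate numbers thus showed no pairing of the samples. The correlations are over single positions of unknown depth and cannot exclude a weak pairing. With the replicate number as a block, F was 7.95 (permutation test, p = 0.00444), calls among members 364 (0.990%, against 1.32% of all positions) and calls near members 633 (3.13%, against 1.74%). Requiring 2 of 3 samples per strain gave 64054 members with an excess of 43.3 points, and allowing 1 of the 6 files gave 61688. With strands averaged the excess was 43.6 points. Alternatives for the weighted, isolated and single-strain comparisons, and the count of CpGs with a member on either strand, were chosen after seeing the data. Depth is unknown, so no value carries a counting error, and where neither strand was listed a lack of coverage cannot be told apart from the lack of a CpG.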
